A study of Mus musculus with 12 samples.

Results

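The inflammasome and pyroptosis genes were followed in the skin of wild-type and Thy-1–KO mice: Nlrp3, Nlrc4, Aim2, Nlrp1b, Pycard, Casp1, Casp4, Gsdmd, Il18 and Il18bp. They were taken by symbol from the count data and are 10 of the 55453 genes listed. The list was chosen with earlier results of these data known. RNA-Seq was done on skin from 12 female mice of the strain C57/BL6, aged 8 to 12 weeks, in 4 groups of 3. Wild-type and Thy1-knockout animals each received either PBS (the WT PBS and KO PBS groups) or bleomycin (the WT BLM and KO BLM groups). The antibiotic bleomycin, which provokes local skin fibrosis, was injected daily under the skin of the back at 10 mg/kg for up to 14 days per the methods, PBS was given the same way, and skin was harvested at day 21. Thy-1 is a surface protein of fibroblasts, T cells and other cells, and the methods describe a knockout strain backcrossed to C57BL/6 for at least 10 generations. The methods describe the controls both as littermates and as purchased C57BL/6J mice, so which of them these WT mice were is not known. The comparisons address the bleomycin response in each genotype, the genotypes under each treatment, and whether the response differed between genotypes.

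An inflammasome is a protein complex that cells assemble on sensing microbes or damage. A sensor (NLRP3, NLRC4, AIM2 or NLRP1B) gathers caspase-1, the product of Casp1, directly or through the adaptor ASC, which Pycard encodes. Caspase-1 cleaves pro-IL-1β and pro-IL-18 into their active forms and cuts gasdermin D, whose freed part makes pores in the cell membrane and can kill the cell by pyroptosis. Casp4 encodes mouse caspase-11, which binds bacterial lipopolysaccharide inside the cell and also cuts gasdermin D, and the secreted IL-18 binding protein, encoded by Il18bp, captures IL-18. In skin, macrophages carry many of these parts and keratinocytes also make pro-IL-18. Transcript levels say nothing of assembly, cleavage or release, which happen to the proteins.

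Windows of 250 bases before the transcription start, from RefSeq on GRCm38.p6, were found for 9 members, with 12 starts between them, and were searched on both strands for 5 short motifs. The letters TTTCNNTTT, the core of interferon response elements, stood in windows of 3 members, Nlrp3, Nlrp1b and Casp4, beside 9.37% of all 32851 promoters of that length and 10.8% of genes. The 3 windows are shown because this was the rarer of the 2 motifs that more than 1 member held. Capitals mark the matches of any of the 5 motifs.
Nlrp3, second start, chr11:59541319-59541568, plus strand: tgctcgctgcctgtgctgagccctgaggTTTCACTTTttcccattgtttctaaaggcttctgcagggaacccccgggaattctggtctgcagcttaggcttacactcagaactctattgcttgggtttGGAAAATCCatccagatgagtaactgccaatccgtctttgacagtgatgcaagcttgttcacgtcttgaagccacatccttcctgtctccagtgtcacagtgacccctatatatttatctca
Nlrp1b, first start, chr11:71230734-71230983, minus strand: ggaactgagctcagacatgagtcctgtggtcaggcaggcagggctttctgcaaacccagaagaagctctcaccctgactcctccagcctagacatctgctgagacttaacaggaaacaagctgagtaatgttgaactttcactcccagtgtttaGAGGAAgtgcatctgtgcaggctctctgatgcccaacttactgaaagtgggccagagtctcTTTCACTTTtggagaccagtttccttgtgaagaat
Casp4, second start, chr9:5308610-5308859, plus strand: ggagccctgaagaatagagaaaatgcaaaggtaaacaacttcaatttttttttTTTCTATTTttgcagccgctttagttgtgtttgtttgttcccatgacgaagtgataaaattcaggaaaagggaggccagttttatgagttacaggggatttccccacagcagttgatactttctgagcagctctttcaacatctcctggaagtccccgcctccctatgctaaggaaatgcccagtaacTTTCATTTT
In the Nlrp3 window the first capitals are the interferon response core, at -222 to -214 from the start. The second, at -122 to -114 on the minus strand, match GGANTTTCC, a form of NF-kB sites. These letters stood in 1.07% of promoters and in no other member window. Other spellings of NF-kB sites were not searched, so members without these letters may still hold such a site. In the Nlrp1b window GAGGAA, the core bound by ETS factors such as PU.1, precedes the interferon response core at -35 to -27. The Casp4 window holds the interferon response core 2 times, at -197 to -189 and at -9 to -1. GAGGAA stood in 5 of the 9 members with a window (Aim2, Casp1, Nlrp1b, Nlrp3 and Pycard), beside 25.9% of genes. TTCNNNGAA, as in STAT sites, and TGANTCA, as in AP-1 sites, were in no member window, beside 7.02% and 6.75% of promoters. No matches of different motifs overlapped in the windows shown, and a match is only a description of the letters.

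Casp1, Casp4 and Il18 lie on chromosome 9, as Thy1 does. In the GENCODE M21 annotation of GRCm38, Casp1 (ENSMUSG00000025888) spans chr9:5298517-5307265 and Casp4 (ENSMUSG00000033538) chr9:5308828-5336783, both on the plus strand and 1.562 kb apart. Il18 (ENSMUSG00000039217) at chr9:50554827-50581840 is 6.506 Mb from Thy1, and Casp1 and Casp4 are 38.736 and 38.707 Mb from it. Nlrp3 (ENSMUSG00000032691, chr11:59541568-59566956) and Nlrp1b (ENSMUSG00000070390, chr11:71153102-71230733) are on chromosome 11. Nlrc4 (ENSMUSG00000039193) is at chr17:74425438-74459142 on the minus strand, Aim2 (ENSMUSG00000037860) at chr1:173350879-173466040 and Gsdmd (ENSMUSG00000022575) at chr15:75862327-75867408 on the plus strand. Pycard (ENSMUSG00000030793, chr7:127989708-127993867) and Il18bp (ENSMUSG00000070427, chr7:102014885-102018690) are both on the minus strand of chromosome 7. Exons of Pycard overlap the antisense gene Gm45205 by up to 485 bases, and those of Il18bp overlap Numa1 on the other strand by up to 80 bases. Whether strand was used in counting is not given in the sources used here. Gm45205 had between 0 and 4 counts in each mouse, whereas Numa1 was at 197 to 282 CPM, well above Il18bp in every mouse.

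Libraries held 26473700 to 38890450 counts on genes, and 18311 genes had enough counts to be tested. Values are CPM (counts relative to the TMM-scaled library total), and a gene was called where its Benjamini-Hochberg adjusted p was below 0.05 in edgeR's quasi-likelihood test. The transcripts of Thy1 itself, counted over the whole gene, were at 104 to 150 CPM in WT PBS against 231 to 416 in WT BLM mice, and 45.6 to 96.9 in KO PBS against 84.7 to 128 CPM in KO BLM mice, so every KO mouse was below every WT mouse of its treatment but none was at 0. The 5 genes taken to check the tissue (Krt5, Krt14 and Krt10 of keratinocytes, Col1a1 and Col3a1 of the dermis) summed to at least 10637 CPM in every mouse. Genes of the growing hair follicle set the libraries apart: 23 of them summed to 50551 to 72717 CPM in WT PBS and to 107 to 899 CPM in WT BLM mice. KO PBS mouse 136 stood at 79756 CPM, with the WT PBS mice, and the KO PBS group reached down to 97.9 CPM. The KO BLM mice ran from 3857 to 38484 CPM, with mouse 141 the highest. Hair growth and bleomycin therefore cannot be told apart in WT mice, nor hair growth and genotype between WT BLM and KO BLM mice. Among PBS mice the same holds for hair growth and genotype once mouse 136 is left out. Results that rest on mice 136 or 141 are given with and without them. In whole skin, fewer cells of a type and less RNA per cell cannot be told apart.

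Bleomycin was accompanied by higher levels of most of these genes in WT skin. Of the 10 members, 8 were called, all higher with bleomycin, beside 34% of all genes called in either direction and 19.8% called higher. They were the sensors Nlrp3, Nlrc4 and Aim2, both caspases, Gsdmd, Il18 and Il18bp, with log2 fold changes from 0.81 to 3.16. Nlrp1b and the adaptor Pycard did not pass. The median over the members was 1.58 on the log2 scale, beside 0.02 over all genes tested. In 9 of the 10, all but Pycard, each WT BLM mouse was above each WT PBS mouse, which was so for 28.3% of genes. Every member had at least 16 counts in every mouse, so none entered the test through its higher group alone.

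**Figure D1:**
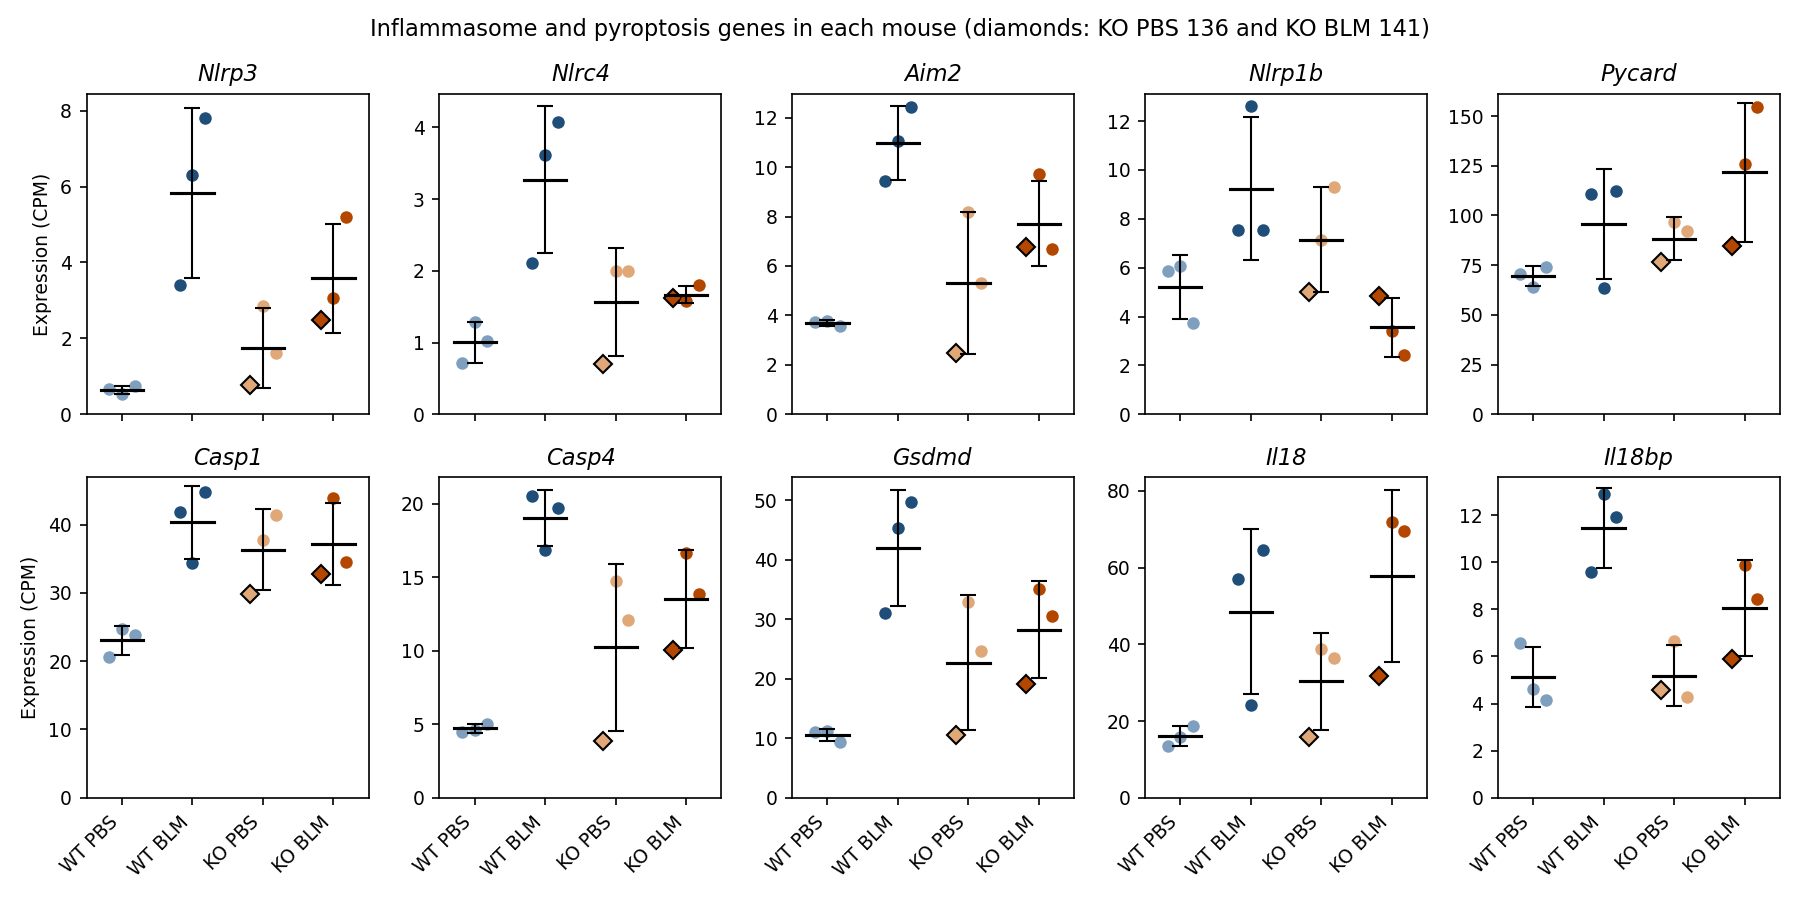
Expression of the 10 genes (CPM, linear axis from 0) in each mouse of the 4 groups, with the group mean (long line) and SD (bars). Nlrp3 lay between 0.526 and 0.739 CPM in WT PBS and between 3.41 and 7.81 in WT BLM mice, and the outlined diamond of KO PBS mouse 136 was the lowest of its group in every panel except that of Il18bp.

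Among the sensors, Nlrp3, which responds to membrane damage, potassium loss and crystals, moved most. Values are given in order of mouse number, which is 159, 160 and 161 for WT PBS, 145, 146 and 147 for WT BLM, 136, 137 and 139 for KO PBS and 141, 143 and 144 for KO BLM. Nlrp3 was at 0.676, 0.526 and 0.739 CPM in WT PBS against 3.41, 6.29 and 7.81 in WT BLM mice, and at 0.765, 2.86 and 1.61 in KO PBS against 2.48, 3.07 and 5.20 in KO BLM mice. The WT groups were far apart, KO PBS mouse 136 was close to the WT PBS mice, and the KO BLM mice lay between the WT groups or inside the WT BLM range. Nlrp3 was 8.96-fold higher in the WT BLM mice (log2 3.16, SE 0.52, adjusted p = 0.00477). In the KO mice the log2 change was 1.03 (95% interval -0.02 to 2.08, adjusted p = 0.257).

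Nlrc4 senses bacterial flagellin and needle proteins through the NAIP receptors. Nlrc4 was at 0.710, 1.28 and 1.02 CPM in WT PBS against 2.11, 3.62 and 4.07 in WT BLM mice, and at 0.698, 2.0 and 2.0 in KO PBS against 1.62, 1.58 and 1.80 in KO BLM mice. The KO BLM mice were close together, above the WT PBS mice and below all 3 WT BLM mice. The WT response was 1.7 on the log2 scale (SE 0.41, adjusted p = 0.0151), and that in KO mice 0.09 (95% interval -0.81 to 0.98, adjusted p = 0.923). Without WT PBS mouse 159 the WT response missed the threshold, with an adjusted p of 0.0617.

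Aim2 binds DNA in the cytosol. Aim2 was at 3.75, 3.78 and 3.57 CPM in WT PBS against 9.44, 11.1 and 12.4 in WT BLM mice, and at 2.46, 8.20 and 5.30 in KO PBS against 6.76, 9.71 and 6.68 in KO BLM mice. The WT PBS mice hardly differed, the WT BLM mice were all higher, and the KO PBS mice spread on both sides of the WT PBS level. Aim2 was 2.96-fold higher in WT BLM mice (log2 1.57, SE 0.36, adjusted p = 0.0122), and the change in KO mice was 0.53 on the log2 scale (95% interval -0.24 to 1.31, adjusted p = 0.405).

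Nlrp1b, a sensor of proteases, had a pattern unlike those of the other sensors. Nlrp1b was at 5.88, 6.05 and 3.72 CPM in WT PBS against 7.56, 12.6 and 7.55 in WT BLM mice, and at 5.02, 7.14 and 9.30 in KO PBS against 4.84, 3.41 and 2.44 in KO BLM mice. Within WT mice the bleomycin group was the higher one, and within KO mice it was the lower one, with no overlap in either genotype. The log2 change was 0.83 in WT mice (95% interval 0.07 to 1.58, adjusted p = 0.0805) and -1.0 in KO mice (95% interval -1.76 to -0.25, adjusted p = 0.168), and neither passed the threshold in edgeR. Reads of Nlrp1b may be shared with its close relatives, and the pseudogene Nlrp1c-ps ran from 1.15 to 1.84 CPM in WT PBS against 1.88 to 3.13 in WT BLM mice, and 1.53 to 2.53 in KO PBS against 0.389 to 1.19 CPM in KO BLM mice, so its KO BLM mice were also below its KO PBS mice.

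The adaptor gene Pycard showed the smallest WT response of the 10. Pycard was at 70.7, 64.0 and 74.1 CPM in WT PBS against 111, 63.7 and 112 in WT BLM mice, and at 76.4, 96.7 and 92.1 in KO PBS against 84.8, 126 and 154 in KO BLM mice. WT BLM mouse 146 was just below the lowest WT PBS mouse, and the other WT BLM mice were above that group. The log2 changes were 0.46 in WT mice (95% interval -0.09 to 1.0, adjusted p = 0.165) and 0.46 in KO mice (95% interval -0.08 to 1.01, adjusted p = 0.315).

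Both inflammatory caspases rose in WT skin. Casp1 was at 20.6, 24.6 and 23.9 CPM in WT PBS against 41.8, 34.3 and 44.8 in WT BLM mice, and at 29.8, 37.8 and 41.4 in KO PBS against 32.8, 43.9 and 34.5 in KO BLM mice. The WT PBS mice were below every other mouse, and the remaining groups overlapped. The WT response of Casp1 was 0.81 (SE 0.17, adjusted p = 0.00924), and that in KO mice 0.03 on the log2 scale, with a 95% interval of -0.34 to 0.40 and an adjusted p of 0.941. Casp4 was at 4.50, 4.64 and 5.04 CPM in WT PBS against 20.6, 16.9 and 19.7 in WT BLM mice, and at 3.86, 14.7 and 12.1 in KO PBS against 10.04, 16.7 and 13.9 in KO BLM mice. Here KO PBS mouse 136 was below all WT PBS mice while mice 137 and 139 were well above them, and the KO BLM mice stayed below the WT BLM mice. Casp4 was 4.03-fold higher in WT BLM mice (log2 2.01, SE 0.40, adjusted p = 0.00792), with a log2 change of 0.40 in KO mice (95% interval -0.45 to 1.25, adjusted p = 0.573).

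Gsdmd, which encodes the pore-forming gasdermin D, had a pattern close to that of Casp4. Gsdmd was at 11.02, 11.2 and 9.43 CPM in WT PBS against 31.0, 45.3 and 49.7 in WT BLM mice, and at 10.5, 32.9 and 24.6 in KO PBS against 19.2, 35.0 and 30.6 in KO BLM mice. The WT groups did not overlap, KO PBS mouse 136 lay within the WT PBS range, and the other KO mice were between or inside the WT BLM values. The WT response was 1.99 on the log2 scale (SE 0.38, adjusted p = 0.00702), a 3.98-fold rise. In KO mice it was 0.32 (95% interval -0.49 to 1.12, adjusted p = 0.642).

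Il18 encodes the cytokine that caspase-1 activates, and its product drives interferon-γ from T and NK cells. Il18 was at 13.5, 15.9 and 18.7 CPM in WT PBS against 56.9, 24.2 and 64.5 in WT BLM mice, and at 15.9, 38.9 and 36.5 in KO PBS against 31.8, 71.9 and 69.5 in KO BLM mice. WT BLM mouse 146 was lower than the other WT BLM mice, and all KO mice but 136 were above every WT PBS mouse. The WT response was 1.60 (SE 0.45, adjusted p = 0.0240) and that in KO mice 0.93 on the log2 scale (95% interval -0.05 to 1.90, adjusted p = 0.267). The WT call was lost without any 1 of 5 mice, with adjusted p of 0.0614 and 0.0752 without WT BLM 145 and 147, and of 0.0824, 0.0759 and 0.0564 without WT PBS 159, 160 and 161. With the mean level of the hair genes as a covariate the WT change of Il18 was 0.02 on the log2 scale (adjusted p = 0.997).

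Il18bp encodes the soluble inhibitor of IL-18. Il18bp was at 6.56, 4.64 and 4.15 CPM in WT PBS against 9.59, 12.9 and 11.9 in WT BLM mice, and at 4.59, 6.66 and 4.29 in KO PBS against 5.88, 9.89 and 8.45 in KO BLM mice. The KO PBS mice were at the level of the WT PBS mice, and KO BLM mouse 141 was within the KO PBS range. The response was 1.16 in WT mice (SE 0.27, adjusted p = 0.0123) and 0.64 on the log2 scale in KO mice (95% interval 0.05 to 1.23, adjusted p = 0.218). Without WT PBS mouse 160 the WT call was lost (adjusted p = 0.0556).

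Compared per kilobase of merged exons, the means of the downstream genes stood above those of the sensors in all 4 groups. In WT PBS skin Pycard (18.3 CPM per kb), Il18 (15.5) and Casp1 (15.4) led, with the range of Il18 overlapping both others and that of Pycard above that of Casp1, followed by Gsdmd at 4.44, Il18bp at 1.69 and Casp4 at 1.27 CPM per kb. The sensors came last, Aim2 at 1.06, Nlrp1b at 0.828, Nlrc4 at 0.209 and Nlrp3 at 0.160 CPM per kb, and the last 2 overlapped. Il18 had the highest mean in the other 3 groups, at 47.1 in WT BLM, 29.5 in KO PBS and 56.0 CPM per kb in KO BLM mice, overlapping there with Casp1 or Pycard. Nlrp3 stood last in WT PBS and above Nlrc4 in the other groups, where the ranges of Nlrp3 and Nlrc4 overlapped in WT BLM and KO PBS mice.

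In the KO mice bleomycin changed none of the members past the threshold. edgeR called 0 of the 10 between KO BLM and KO PBS mice, beside 0.306% of all genes, and DESeq2 also called 0, beside 6.14% of genes. At an unadjusted p under 0.05 there were 2, Nlrp1b (lower) and Il18bp (higher), the same share as the 20% of all genes. The median log2 change over the members was 0.43, beside -0.01 over all genes tested. Nlrp1b was the 1 member whose KO groups did not overlap, lower in KO BLM mice, as were 8.44% of genes. Without KO PBS mouse 136, edgeR called Nlrp1b alone, with a log2 change of -1.2 and an adjusted p of 0.0458, beside 4.79% of genes called lower. With KO BLM mouse 141 left out instead, edgeR called 0 members, beside 6.19% of genes. In that fit 5 members had an unadjusted p under 0.05, beside 5193 of 18783 genes. With the mean level of the hair genes as a covariate, 5 members (Nlrp3, Aim2, Casp4, Gsdmd and Il18) were called higher in KO BLM mice, beside 7.78% of genes called higher. In WT mice, where the hair genes and the treatment move together, the same model called 0 members (2 at an unadjusted p under 0.05, beside 9.85% of genes), beside 0.071% of genes called higher. Of the 8 WT changes, those of Nlrp3 (log2 1.87), Il18bp (0.78), Gsdmd (0.74) and Nlrc4 (0.73) were the largest left in it, and Casp4 was at 0.44, Aim2 at 0.38, Casp1 at 0.35 and Il18 at 0.02.

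**Figure D2:**
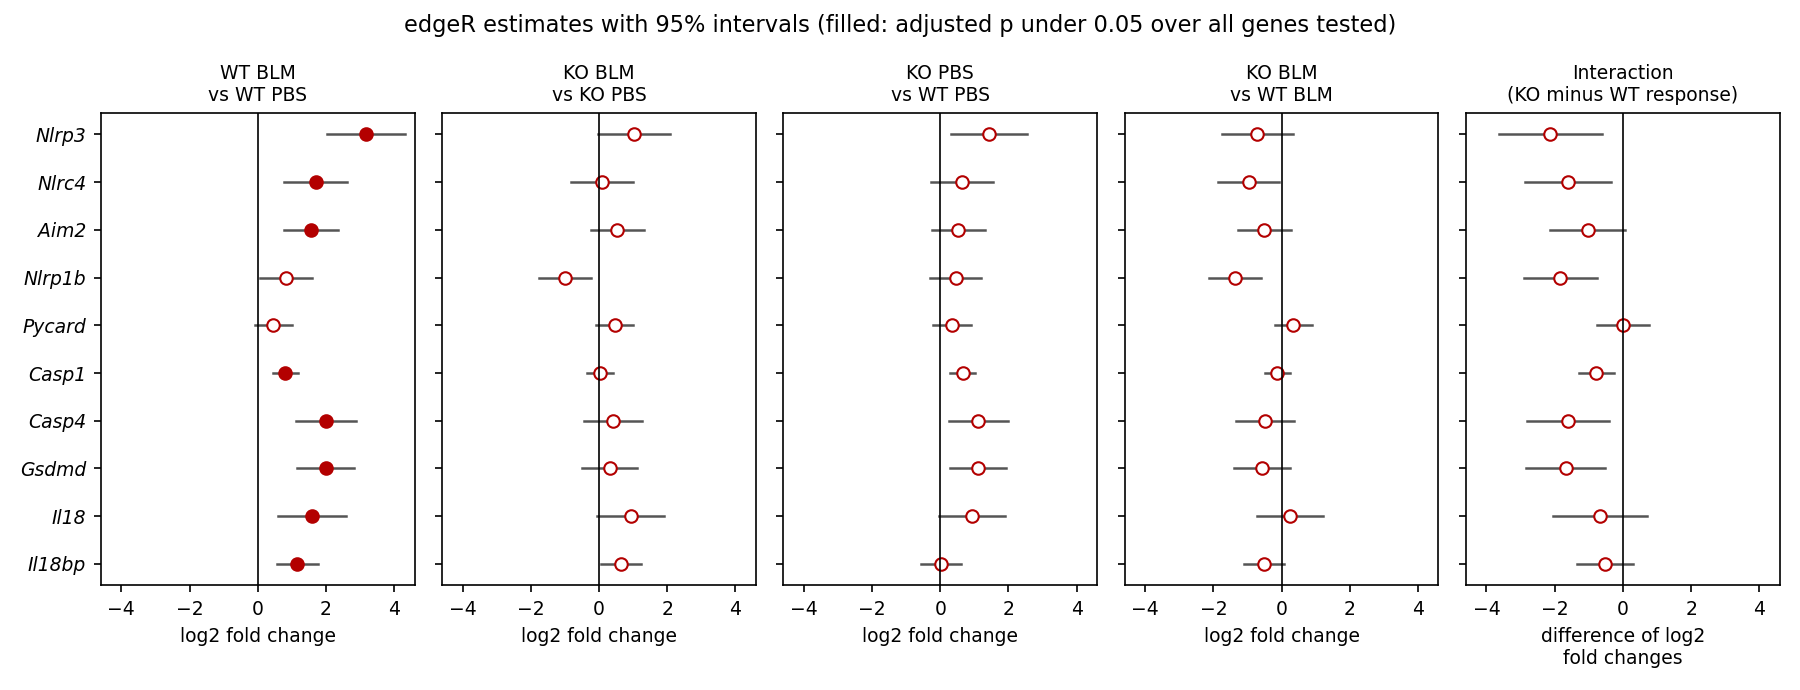
Log2 fold changes (x axis) of the 10 genes in 4 comparisons, and in the last panel the difference of the 2 responses, with 95% intervals from edgeR. Filled points, 8 of them and all in the first panel, passed an adjusted p of 0.05, and in the last panel 9 of the 10 points lie below 0 while Pycard is at 0.00.

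The genotypes were also compared in PBS-treated skin. All 10 estimates were higher in KO PBS than in WT PBS mice, with a median log2 difference of 0.65 beside 0.02 over all genes, and edgeR called 0 of them, beside 0.0655% of genes. At an unadjusted p under 0.05 there were 4: Nlrp3 (log2 1.42), Casp1 (0.66), Casp4 (1.11) and Gsdmd (1.10), beside 20.4% of genes. DESeq2 called Casp1, with an adjusted p of 0.0306, beside 2.38% of genes called higher. Every KO PBS mouse was above every WT PBS mouse for 3 members, Nlrp3, Pycard and Casp1, as for 8.62% of genes. These values turned on mouse 136, which was at or below the highest WT PBS mouse for 7 of the 10 genes, while this held for 0 genes in mouse 137 and for Il18bp alone in mouse 139. Without mouse 136, edgeR called 7 members higher in KO PBS mice (Nlrp3, Nlrc4, Aim2, Casp1, Casp4, Gsdmd and Il18), beside 17.8% of genes called higher. Their log2 differences then ran from 0.78 for Casp1 (adjusted p = 0.00546) to 1.78 for Nlrp3 (adjusted p = 0.0129), and Il18bp stayed at 0.10 (adjusted p = 0.812). The hair genes of mice 137 and 139 summed to 97.9 and 295 CPM, against 50551 to 72717 CPM in WT PBS mice. Without mouse 136, genotype and hair growth therefore cannot be told apart. With all mice and the hair covariate, 0 members had an unadjusted p under 0.05, beside 699 of 18311 genes. The estimates of Nlrc4, Aim2, Pycard, Casp4, Il18 and Il18bp turned below 0 in that fit.

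Under bleomycin most estimates lay the other way. Estimates were lower in KO BLM than in WT BLM mice for 8 of the 10, with a median of -0.51 beside -0.03 over all genes, and Pycard (0.35) and Il18 (0.25) were the exceptions. edgeR called 0, beside 0.0928% of genes, and 2 had an unadjusted p under 0.05, beside 16.6% of genes, Nlrp1b (log2 -1.37, 95% interval -2.14 to -0.61, adjusted p = 0.206) and Nlrc4 (log2 -0.97, 95% interval -1.86 to -0.08, adjusted p = 0.283). DESeq2 called Nlrp1b (adjusted p = 0.00946), beside 1.64% of genes called lower. Nlrc4, Nlrp1b and Casp4 were lower in every KO BLM than in every WT BLM mouse, as were 12.9% of genes. For Casp4 the gap was narrow, from 16.7 CPM in KO BLM mouse 143 to 16.9 CPM in WT BLM mouse 146. Its log2 estimate was -0.49 (95% interval -1.34 to 0.36, adjusted p = 0.504). With KO PBS mouse 136 left out of the model, edgeR called Nlrp1b as well, with an adjusted p of 0.0367, beside 3.11% of genes called lower. That mouse is in neither of these groups, and the log2 estimate was -1.37 with and without it. The number of all genes called in either direction rose from 17 to 1292. The hair genes did not overlap between the bleomycin groups, at 107 to 899 CPM in WT BLM and 3857 to 38484 CPM in KO BLM mice. Genotype and hair growth therefore cannot be told apart here. With the hair covariate edgeR called 0 members, beside 0.328% of genes, and the estimates of Nlrp3, Aim2, Casp1, Casp4 and Gsdmd turned above 0.

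The difference between the responses, KO minus WT, was below 0 for 9 of the 10 members, with a median of -1.32 beside -0.05 over all genes. edgeR called 0 of them and 0% of all genes. At an unadjusted p under 0.05 there were 6: Nlrp3 (-2.13, adjusted p = 0.0894), Nlrp1b (-1.83, adjusted p = 0.0722), Gsdmd (-1.68, adjusted p = 0.0862), Nlrc4 (-1.61, adjusted p = 0.106), Casp4 (-1.61, adjusted p = 0.0989) and Casp1 (-0.78, adjusted p = 0.0843), beside 31.1% of genes. DESeq2 called the 6, with adjusted p from 0.00540 for Nlrp1b to 0.0411 for Nlrc4, beside 10.6% of genes called with a lower KO response. Without KO PBS mouse 136, edgeR called 7, those 6 and Aim2, beside 19.5% of genes. With the hair covariate it called 0 of the members (2 at an unadjusted p under 0.05, beside 7.66% of genes), and the estimates of Aim2, Casp4, Gsdmd and Il18 turned above 0. The 2 responses share no mice, whereas the interaction uses all 12 and its value rests on the KO PBS group as much as on the KO BLM group.

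Markers of several cell types differed between the groups alongside the members. Among all genes, 19.8% were called higher and 34% in either direction in WT mice, and 0.306% in either direction in KO mice. Of 15 macrophage and monocyte markers, 13 were called higher in WT BLM mice and 1 in KO BLM mice. Their summed level was 640 to 1240 CPM in WT PBS against 2689 to 3961 in WT BLM mice, and 672 to 2400 in KO PBS against 1952 to 2667 CPM in KO BLM mice. All 15 had counts in every mouse. Neutrophil markers summed to 16.2 to 22.2 CPM in WT PBS against 140 to 637 in WT BLM mice, and 30.8 to 33.9 in KO PBS against 33.5 to 439 CPM in KO BLM mice, with 6 of 7 tested called higher in WT BLM mice. Most of the WT BLM sum came from S100a8, S100a9 and Mmp9, at 65.7, 110 and 102 CPM on average. Ly6g, which marks neutrophils, had between 0 and 2 counts in each mouse, Mpo between 0 and 6 and Elane between 1 and 15. All 10 T and NK cell markers were called higher in WT BLM mice, and summed to 24.6 to 27.7 CPM in WT PBS against 63.5 to 104 in WT BLM mice, and 24.4 to 72.0 in KO PBS against 74.7 to 126 CPM in KO BLM mice. Among 8 markers of dendritic and Langerhans cells 3 were called higher in WT BLM mice, and among 10 of keratinocytes 1, a lower share than that of all genes. The keratinocyte markers summed to 9627 to 11963 CPM in WT PBS against 12380 to 32216 in WT BLM mice, and to 12071 to 19975 in KO PBS against 13709 to 46162 CPM in KO BLM mice. The WT sums did not overlap, but the mean log2(CPM + 1) of the list did, at 9.11 to 9.47 in WT PBS and 9.15 to 10.26 in WT BLM mice. The WT estimate was above 0 for 6 of the 10, while Trp63, Dsg3, Dsc3 and Ivl were lower on average in WT BLM mice. Mice 146 and 141 were the lowest of the WT BLM and KO BLM groups for the keratinocyte list and also for the T and NK cell list. Among the members the same held for Il18, Pycard, Casp1 and Casp4. Of 9 fibroblast markers 4 and of 8 skeletal muscle markers 7 were called higher in WT BLM mice, and 13 of the 23 hair genes were called lower there. The fibroblast markers summed to 6118 to 8209 CPM in WT PBS against 10920 to 35032 in WT BLM mice, and 5719 to 18644 in KO PBS against 8925 to 23737 CPM in KO BLM mice. The muscle markers summed to 4895 to 5485 CPM in WT PBS against 16765 to 34554 in WT BLM mice, and 6148 to 25224 in KO PBS against 9896 to 18904 CPM in KO BLM mice. The dendritic and Langerhans cell markers ran from 33.9 to 43.2 CPM in WT PBS against 104 to 142 in WT BLM mice, and 33.0 to 101 in KO PBS against 65.3 to 118 CPM in KO BLM mice. The part of these cells in the members' values was not tested.

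**Figure D3:**
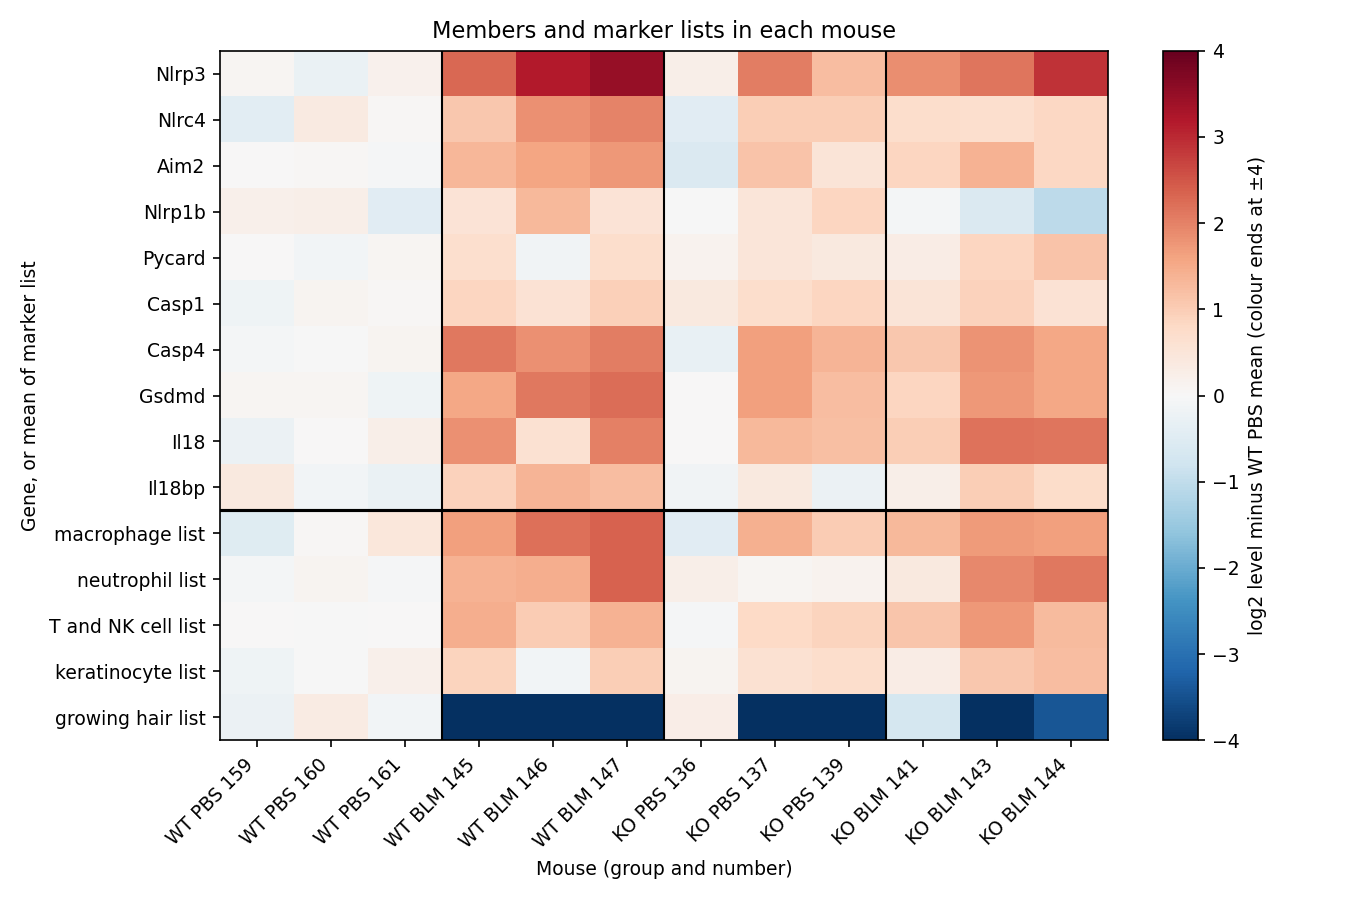
Level of each gene (top, log2 CPM) and mean log2(CPM + 1) of 5 marker lists (bottom) in each mouse, minus the mean of the WT PBS mice, with red above and blue below that mean. KO PBS mouse 136 looks like the WT PBS mice in the hair row and in most gene rows, and Nlrp1b is the one gene whose KO BLM mice include values clearly below the WT PBS mean.

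The members differed in how alike their patterns over the 12 mice were, given as Pearson's r of log2 CPM with no test, since the mice share 4 groups and a mixed tissue. Casp4 and Gsdmd were closest (0.96), followed by Aim2 with Casp4 (0.95) and Nlrp3 with Gsdmd (0.95), and Pycard was nearest to Il18 (0.91). Nlrp1b stood apart, from -0.48 with Pycard to 0.48 with Nlrc4. Over 15476 genes, the most alike to Nlrp3 were Siglece, Fxyd5 and B3gnt3, to Nlrc4 Lyl1, Csf1r and Pld4, and to Aim2 Myo1g, Fes and Tifab. For Nlrp1b they were Tbc1d24, Dclre1c and Nlrp1c-ps, which may share its reads. For Casp1 they were N4bp2l1, Pip4p1 and Il13ra1, for Casp4 Ptpn6, Pam and Parp9, and for Gsdmd Mgat1, Apobec3 and Uba7. Pycard was most like Fam89a and Ptgr1, Il18 like Sdcbp2, Ly6m and the cornified envelope gene Lce1b, and Il18bp like Mirg, Htra2 and Ap1m1, with r from 0.92 to 0.99 over the pairs named.

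A ratio of counts within a library does not depend on its scaling, and 4 such tests were made by exact permutation within strata, two-sided, with 400 arrangements and a smallest p of 0.005. The log2 ratio of Casp1 to Casp4 was 2.28 ± 0.11 in WT PBS against 1.08 ± 0.09 in WT BLM mice, and 2.03 ± 0.82 in KO PBS against 1.47 ± 0.21 in KO BLM mice (mean ± SD, n = 3). It was lower with bleomycin by 1.2 in WT and 0.55 in KO mice, with every WT BLM mouse below every WT PBS mouse and the KO groups overlapping (mean difference -0.88, exact p = 0.015, adjusted over the 4 tests 0.06). The KO difference rested on KO PBS mouse 136, and without it was -0.09, with a mean difference of -0.65 (exact p = 0.03, adjusted 0.06). Without KO PBS mouse 137 the KO difference was -0.89 and the mean difference -1.05 (exact p = 0.005, the smallest that the 200 arrangements left can give, adjusted 0.02). Between genotypes this ratio differed by 0.07 (exact p = 0.785). The log2 ratio of Il18bp to Il18 was -1.66 ± 0.57 in WT PBS against -1.97 ± 0.92 in WT BLM mice, and -2.47 ± 0.65 in KO PBS against -2.78 ± 0.31 in KO BLM mice (mean ± SD, n = 3). It was lower in KO mice by 0.81 under each treatment (exact p = 0.045, adjusted 0.09), and the groups overlapped in both. Under bleomycin this rested on WT BLM mouse 146, at -0.91, and without it the difference was -0.28, with a mean over both treatments of -0.54 (exact p = 0.08, adjusted 0.127). With bleomycin the mean difference was -0.31 (exact p = 0.385, adjusted 0.513).

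**Figure D4:**
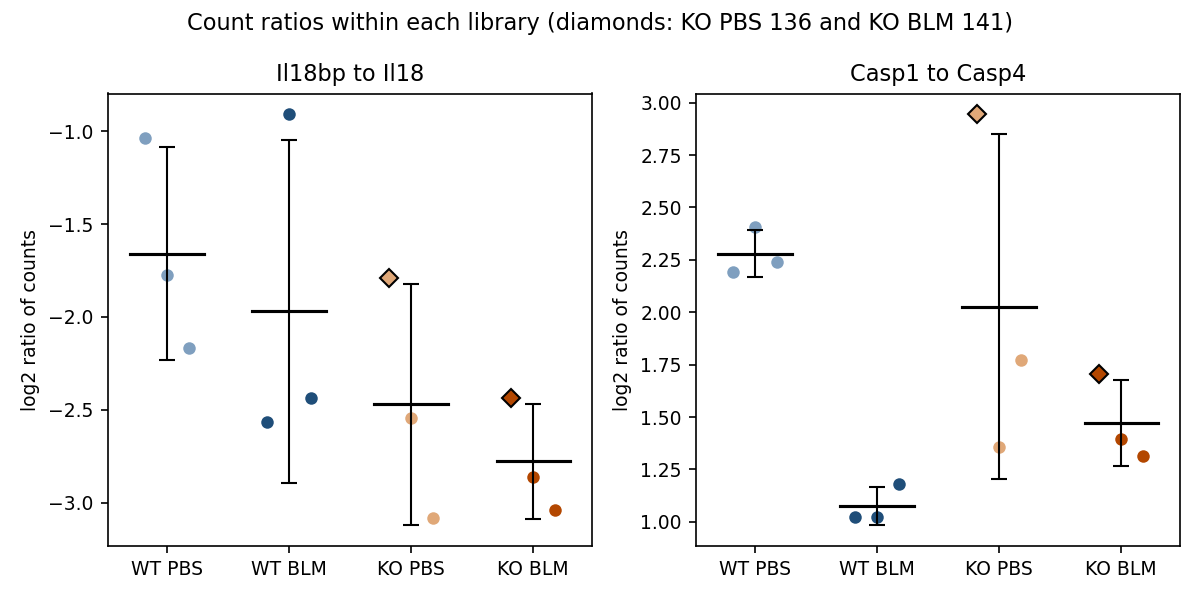
Log2 ratio of counts of Il18bp to Il18 (left) and of Casp1 to Casp4 (right) in each mouse, with group means (long lines) and SD (bars). The ratio of Casp1 to Casp4 averages 2.28 in WT PBS and 1.08 in WT BLM mice with little spread, while KO PBS mouse 136 stands at 2.95, above all others.

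The other genes of the pathway were counted by role, beside 19.8% of all genes called higher in WT BLM mice and 34% in either direction. Of 10 further sensors and their helpers 7 were tested and 5 were called higher in WT BLM mice, among them Zbp1, a sensor of Z-form nucleic acids (log2 2.93, SE 0.62, adjusted p = 0.00978), Naip5 (1.98) and Naip2 (1.97), which bring bacterial ligands to NLRC4, and Mefv, which encodes pyrin (1.86). The Naip genes are near copies of each other and may share reads. In KO mice the changes of these 4 were 0.87, 0.02, 0.25 and 0.11 on the log2 scale, and none was called. Of 13 tested regulators 6 were called higher in WT BLM mice, including Serpinb1a, an inhibitor of neutrophil and inflammatory proteases (3.16), Ifi213 (3.20), Card19 (1.65) and Gbp5, a guanylate binding protein (1.71).

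Among 11 tested gasdermins and executioners, 6 were called higher and 1 lower in WT BLM mice. Gsdmc was at 1.39 CPM in WT PBS and 57.1 CPM in WT BLM mice on average (log2 5.34, SE 1.09, adjusted p = 0.00845) and at 1.95 and 62.9 CPM in the KO groups (log2 5.0, SE 1.06, adjusted p = 0.0765). Gsdmc2 counts ran from 1 to 5 in WT PBS against 19 to 155 in WT BLM mice, and from 1 to 7 in KO PBS against 13 to 152 in KO BLM mice. The log2 changes in WT and KO mice were 1.78 and 0.04 for Casp12, and 0.89 and 0.34 for Casp8, an initiator of apoptosis, and edgeR called the WT changes of these 3. The gene that edgeR called lower was Gsdma3, a gasdermin of hair follicle and epidermis (log2 -1.75, adjusted p = 0.0162). Gsdma was also lower, at 314 to 403 CPM in WT PBS against 78.1 to 183 in WT BLM mice, and was called by DESeq2 only, beside 34.2% of genes. In KO mice Gsdma was at 74.5 to 466 CPM with PBS and 251 to 293 CPM with bleomycin. Both genes are named here after their values were seen. Gsdmc genes are close copies, so their reads may be split between them.

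Of 13 tested genes of the IL-1 family and its receptors, 8 were called higher in WT BLM mice. They included the IL-33 receptor gene Il1rl1 (log2 3.84), the IL-18 receptor chain gene Il18rap (2.88) and the alarmin gene Il33 (2.81). Il1b, the other cytokine that caspase-1 activates, rose by 2.19 (SE 0.54, adjusted p = 0.0155), and its change in KO mice was 2.93 (SE 0.55, adjusted p = 0.0553). In KO mice, between genotypes and for the difference of responses, edgeR called 0 of the 44 genes in these 4 role groups. At an unadjusted p under 0.05 there were 14 in KO mice, 15 between the PBS groups, 4 between the bleomycin groups and 17 for the difference of responses, beside the 20%, 20.4%, 16.6% and 31.1% of all genes given above, so that the 4 are a lower share than the background. DESeq2 called 7, 2, 0 and 11, beside 6.14%, 3.83%, 3.34% and 18.5% of all genes. In KO mice the 7 were Txnip, Gsdmc, Gsdmc2, Il1b, Il18rap, Il1f6 and Il1f8. Txnip was lower with bleomycin, at 982 CPM in KO PBS and 448 CPM in KO BLM mice on average, and the others were higher. The median log2 change over the IL-1 family was 2.18 in WT and 0.75 in KO mice, and over the further sensors 1.93 and 0.06.

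**Figure D5:**
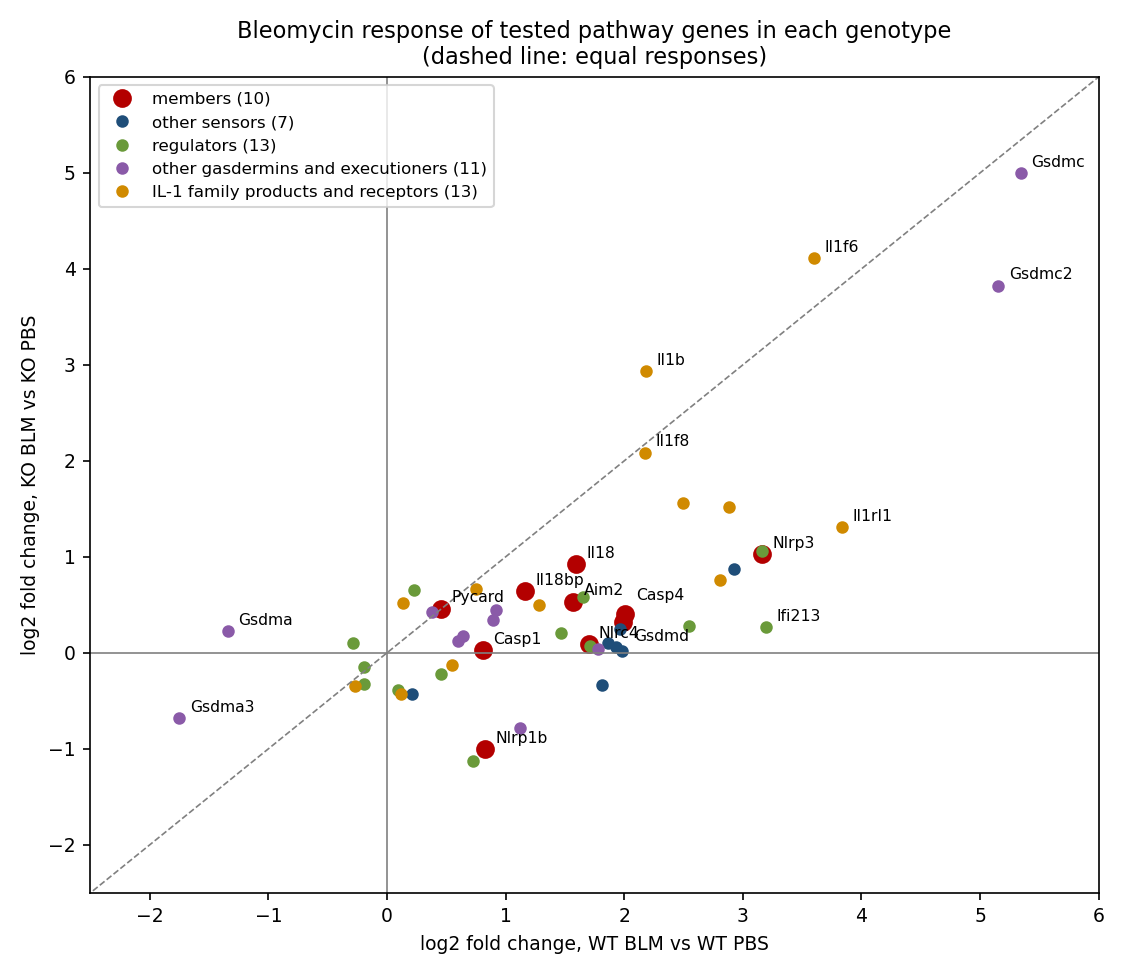
Log2 fold change with bleomycin in WT mice (x axis) against that in KO mice (y axis) for the 10 members (large red points) and 44 other tested pathway genes, by role, with a dashed line where both would be equal. Most members lie below the line, Pycard lies on it, Nlrp1b is below 0 on the y axis, and Gsdmc and Il1b lie close to or above the line.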

How the data were processed

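RNA-Seq of skin from 12 mice was used. The authors made stranded mRNA libraries and deposited a raw count per gene and mouse, without normalization. The labels name GRCm38.p6 and MultiQC 1.7. The aligner, the counting tool, its annotation and its use of strand are not given in the sources used here. Libraries held 26473700 to 38890450 counts (median 31494965). The spread between mice was a biological coefficient of variation of 34.9%.

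Genes were kept by edgeR's filterByExpr (minimum count 10, total 15), normalized by TMM and fitted with edgeR 4.0.16 (R 4.3.3) as 4 group means, with Benjamini-Hochberg adjustment over 18311 genes. All 3 KO PBS mice were included. Steps were tested on simulated data. Ratios used counts plus a pseudocount of 0.5 and exact permutation tests. The members and lists were chosen with earlier results of these data known. All members were named, and of each role group the 4 tested genes with the smallest adjusted p in WT mice. Alternatives were DESeq2 1.42.0, RLE and upper-quartile scaling, no filter, a mean of at least 1 CPM, only the groups compared, each mouse left out in turn and the mean log2(CPM + 1) of the hair genes as a covariate. Leaving out both KO PBS 136 and KO BLM 141 was chosen after seeing the data. One gene with a pattern like that of a member is not reported here. Python 3.11.15 was used for sequences and matplotlib 3.10.9 for plots.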

Additional observations from a re-analysis of the deposited data

Results flagged for a closer look

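The bleomycin and PBS groups lay in opposite order for Nlrp1b in WT and KO mice. All 3 WT BLM mice (7.55 to 12.6 CPM) were above all 3 WT PBS mice (3.72 to 6.05 CPM), and all 3 KO BLM mice (2.44 to 4.84 CPM) were below all 3 KO PBS mice (5.02 to 9.30 CPM). The difference of the responses, KO minus WT, was -1.83 on the log2 scale (95% interval -2.90 to -0.76). It had an adjusted p of 0.0722 in edgeR and of 0.00540 in DESeq2, and over the leave-one-out fits it ran from -2.12 to -1.54, with adjusted p in edgeR from 0.00749, without KO PBS 136, to 0.167. With the mean level of the hair genes as a covariate it was -1.74 (adjusted p = 0.639).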

How the results depend on the processing

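The number of members called in WT mice was 8 under DESeq2, both other scalings, both other filters and the model of 2 groups, 6 to 8 with 1 mouse left out (6 without WT PBS 159 or 160) and 9 without both KO PBS 136 and KO BLM 141. With the hair covariate it was 0 in WT and 5 in KO mice. Leaving out KO PBS 136 gave 1 in KO mice, 7 between the PBS groups, 1 between the bleomycin groups and 7 for the difference of responses, leaving out both 136 and 141 gave 1, 7, 1 and 7, and each other mouse left out gave 0 in all 4. DESeq2 gave 1 between the PBS groups, 1 between the bleomycin groups and 6 for the difference of responses. Over all genes, DESeq2 called 1212, 755, 614 and 3279 in these 4 comparisons and edgeR 56, 12, 17 and 0. Leave-one-out fits called 2615 to 8565 genes in WT mice and 0 to 2632 in KO mice, and without KO PBS 136 edgeR called 6870 between the PBS groups, 1292 between the bleomycin groups and 7470 for the difference. No filter called 176 in KO mice and 20 for the difference, the model of 2 groups 0 in KO mice, 6 between the bleomycin and 2 between the PBS groups, and the hair covariate 20 in WT, 2051 in KO mice and 60 between the bleomycin groups. DESeq2's median over all genes for the difference was -0.11.

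Signs turned for log2 values that edgeR had not called, and the cause was not tested. With the hair covariate these were Pycard in WT mice (-0.13), Nlrc4 (-0.15), Aim2 (-0.44), Pycard (-0.045), Casp4 (-0.17), Il18 (-0.20) and Il18bp (-0.25) between the PBS groups, Nlrp3 (0.069), Aim2 (0.22), Casp1 (0.16), Casp4 (0.46) and Gsdmd (0.16) between the bleomycin groups, and Aim2 (0.66), Casp4 (0.62), Gsdmd (0.074) and Il18 (1.39) for the difference of responses. Casp1 in KO mice was -0.0057 with no filter, and Pycard for the difference was -0.0037 with RLE, -0.027 with upper-quartile scaling and -0.028 with a mean of at least 1 CPM. Without both 136 and 141, Nlrc4 (-0.24) and Casp1 (-0.014) turned in KO mice. With 1 mouse left out, the ranges were -0.26 to 0.30 (Nlrc4), -0.11 to 0.13 (Casp1) and -0.026 to 0.68 (Gsdmd) in KO mice, -0.20 to 0.27 for Il18bp between the PBS groups, -0.072 to 0.58 for Il18 between the bleomycin groups and -0.22 to 0.21 for Pycard for the difference. The log2 ratio of Casp1 to Casp4 ran from -0.16 (without KO PBS 136) to 0.24 between genotypes, and from -1.05 (without KO PBS 137) to -0.65 with bleomycin.

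No paired analysis was possible because every mouse has its own number. With 3 mice per group, a difference that missed the threshold is not shown to be absent. Nothing says whether mice of a group were processed together, and depth limits Nlrp3 most, with 16 counts in 1 WT PBS mouse.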
